A study of Mus musculus with 2 samples.

Results

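Expression of 41 genes of sterol and myelin lipid synthesis was read in optic nerves of *Nf1*-OPG mice, profiled by single-cell RNA sequencing, across glioma-like cells, oligodendrocyte-like cells and their subtypes, astrocyte-like cells and macrophages. The genes were taken by symbol from a list and not by a rule on their values, but the list was made with earlier results of these data known. All 41 were found among the 32285 genes counted. They fall into 6 role lists. The mevalonate and squalene steps are *Hmgcs1*, *Mvk*, *Pmvk*, *Mvd*, *Idi1*, *Fdps*, *Fdft1* and *Acat2*. The steps from squalene to cholesterol are *Sqle*, *Lss*, *Cyp51*, *Tm7sf2*, *Msmo1*, *Nsdhl*, *Hsd17b7*, *Ebp*, *Sc5d* and *Dhcr7*. *Insig1*, *Srebf1* and *Srebf2* are the sterol regulators. Fatty acid synthesis and desaturation is covered by *Acly*, *Acss2*, *Acaca*, *Fasn*, *Scd1*, *Scd2*, *Fads1*, *Fads2*, *Elovl1*, *Elovl5* and *Elovl6*. *Ugt8a*, *Gal3st1*, *Fa2h*, *Cers2* and *Aspa* serve myelin sphingolipid synthesis, and *Abca1*, *Abcg1*, *Soat1* and *Npc1* serve sterol transport and storage.

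Cells build cholesterol from acetyl-CoA through mevalonate, isoprenoids and squalene, and the brain and optic nerve make nearly all of their own because plasma lipoproteins do not cross into them. Myelinating oligodendrocytes carry the largest demand, since myelin is rich in cholesterol and in galactosylceramide and sulfatide with very long, often hydroxylated, acyl chains. Transcription of most of the sterol and fatty acid enzymes is raised by the sterol regulatory element-binding proteins encoded by *Srebf1* and *Srebf2*, which *Insig1* holds in the endoplasmic reticulum when sterols are plentiful. Oxysterols act the other way through the liver X receptors, which raise *Abca1* and *Abcg1*, the exporters of excess sterol.

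Promoter sequences are shown for 4 members, 1 each of the mevalonate, late sterol, sphingolipid and transport lists, because the results below turn on whether these lists move together. Each is the 250 bases before the RefSeq start of the gene (build GRCm38.p6), written 5′ to 3′ on the strand of the gene. Capitals mark matches, on either strand, to TCACNCCAC (the core of the sterol regulatory element), CCAAT (the box bound by NF-Y) and GGGCGG (the GC box), and overlapping matches run together.
*Hmgcs1*, chr13:119690101-119690350, plus strand: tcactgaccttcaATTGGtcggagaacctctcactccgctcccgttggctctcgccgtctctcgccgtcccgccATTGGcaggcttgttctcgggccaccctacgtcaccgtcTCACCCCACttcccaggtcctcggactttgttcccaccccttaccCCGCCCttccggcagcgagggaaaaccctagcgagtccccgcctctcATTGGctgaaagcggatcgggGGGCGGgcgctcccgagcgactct
*Sc5d*, chr9:42264301-42264550, minus strand: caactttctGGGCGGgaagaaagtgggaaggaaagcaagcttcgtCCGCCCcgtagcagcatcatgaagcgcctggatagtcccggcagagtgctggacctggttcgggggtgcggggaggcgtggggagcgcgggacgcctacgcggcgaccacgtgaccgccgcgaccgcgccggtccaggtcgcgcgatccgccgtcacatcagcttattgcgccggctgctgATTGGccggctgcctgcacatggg
*Ugt8a*, chr3:125938653-125938902, minus strand: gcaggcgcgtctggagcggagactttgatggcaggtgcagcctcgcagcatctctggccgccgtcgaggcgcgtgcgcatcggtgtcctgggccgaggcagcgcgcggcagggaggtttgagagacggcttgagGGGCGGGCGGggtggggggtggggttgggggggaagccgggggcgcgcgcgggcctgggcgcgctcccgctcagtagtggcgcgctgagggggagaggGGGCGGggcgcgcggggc
*Abca1*, chr4:53159896-53160145, minus strand: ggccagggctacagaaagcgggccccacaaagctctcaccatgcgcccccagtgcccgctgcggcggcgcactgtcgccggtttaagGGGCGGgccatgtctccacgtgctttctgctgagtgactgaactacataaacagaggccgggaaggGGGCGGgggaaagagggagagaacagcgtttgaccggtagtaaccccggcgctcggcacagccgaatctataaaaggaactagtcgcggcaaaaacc

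The *Hmgcs1* sequence holds 1 match to the sterol regulatory element core, 3 to the CCAAT box and 2 to the GC box. *Sc5d* has 1 CCAAT box and 2 GC boxes, *Ugt8a* has 3 GC boxes and *Abca1* has 2, and these 3 sequences hold no match to the sterol core. Over the 300-base promoters that RefSeq gave for 32 of the 41 members, the CCAAT box was found in 26 (81.2%) against 41.1% of 27025 genes, and the GC box in 25 (78.1%) against 38.2%. By role, the CCAAT box was present in 5 of 6 mevalonate members, 9 of 9 late sterol members and 3 of 3 regulators, but in 5 of 8 fatty acid, 3 of 4 sphingolipid and 1 of 2 transport members. The sterol core was matched in *Hmgcs1* alone, against 1.44% of genes. An LXR element written as 2 copies of AGGTCA spaced by any 4 bases was matched in 0 members, against 0.0148% of genes. A match is a description of letters in this window and was not tested as a binding site.

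Both libraries, C-ON and FMC_new, are optic nerve suspensions labelled NF1-OPG, each from 10 pooled mice aged 12 weeks, and their mice carry *Nf1* flox/mut with GFAP-Cre on a C57BL/6 background, so the floxed allele is removed in cells that express or descend from cells that expressed this transgene. Myelin and debris were removed before droplets were made with a 5′ gene expression kit. Neither the word "control" in the title of C-ON nor the name FMC_new is explained by its label. The labels do not say which mice went into which library, although the methods of the study speak of individual samples. With the library as a block, p-values measure how far class differences vary between these 2 libraries, pooled over all classes in a fit. This spread may be technical. After filters on genes, unique molecular identifiers (UMIs) and mitochondrial share, 8834 of 10845 barcodes (85101211 UMIs) were kept in C-ON and 16818 of 21341 (129113325 UMIs) in FMC_new, with a median of 6810.5 and 4676 UMIs per cell. The libraries shared 188 kept barcodes, 2.13% and 1.12% of their cells.

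Cell classes were rebuilt by clustering, with the 41 genes and 64 further pathway genes kept out of the features used, and named from marker lists, so they may differ from the classes of the study. In C-ON and FMC_new respectively, 213 and 1305 cells were glioma-like, 5779 and 2708 oligodendrocyte-like, 21 and 212 astrocyte-like, 190 and 1281 microglia-like and 382 and 1060 border macrophage-like. All 12 oligodendrocyte precursor markers were detected in the glioma-like cells, where they summed to 13127 and 11552 UMIs per 1e+06 UMIs of the class in that library (CPM) against 150 and 171 in oligodendrocyte-like cells; this list does not separate tumor cells from other precursors. The oligodendrocyte markers summed to 87916 and 79655 CPM in oligodendrocyte-like cells, and the same 12 markers were found in T cell-like cells at 16.6% and 6.44% of that level. T cell-like cells therefore give the background against which a low level is read below, although T cells may transcribe some of the 41 genes themselves. FMC_new also held 1749 pituitary endocrine-like cells, against 19 in C-ON.

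Oligodendrocyte-like cells carried the largest load of these transcripts. The 41 genes summed to 12679 and 10282 CPM there, to 4714 and 3610 in glioma-like, 6471 and 3571 in astrocyte-like, 3173 and 1805 in microglia-like and 2431 and 1051 in border macrophage-like cells, with C-ON given first here and throughout. The T cell-like cells stood at 2220 and 1000 CPM, so the border macrophage-like sum lay close to the background. Among the 5 classes compared, 24 members were highest in oligodendrocyte-like cells in both libraries, and 3 (*Fads1*, *Fads2* and *Abca1*) were highest in astrocyte-like cells in both.

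Counting intervals (exact Poisson, 95%, covering counting error only) lay above those of the T cell-like cells in both libraries for 39 members in oligodendrocyte-like, 32 in glioma-like, 17 in astrocyte-like, 13 in microglia-like and 3 in border macrophage-like cells. An interval narrows as the UMIs summed in a class grow, so these counts also follow class size. The astrocyte-like count was 19 in C-ON, with 21 cells, and 33 in FMC_new, with 212. The share of all genes above the T cell-like interval was not counted. The microglia-like count rests in part on cluster 19, a cluster that carries oligodendrocyte transcripts: in cluster 11, which holds most of the microglia-like cells, 5 members (*Insig1*, *Fads1*, *Abca1*, *Soat1* and *Npc1*) stood above the T cell-like interval in both libraries. The exceptions in oligodendrocyte-like cells were *Fads2* and *Soat1*. In glioma-like cells they were *Hsd17b7*, *Ebp*, *Acss2*, *Elovl1*, *Elovl5*, *Cers2*, *Aspa*, *Abcg1* and *Soat1*. *Fads1*, *Abca1* and *Soat1* were the 3 that stood above it in border macrophage-like cells.

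**Figure D1:**
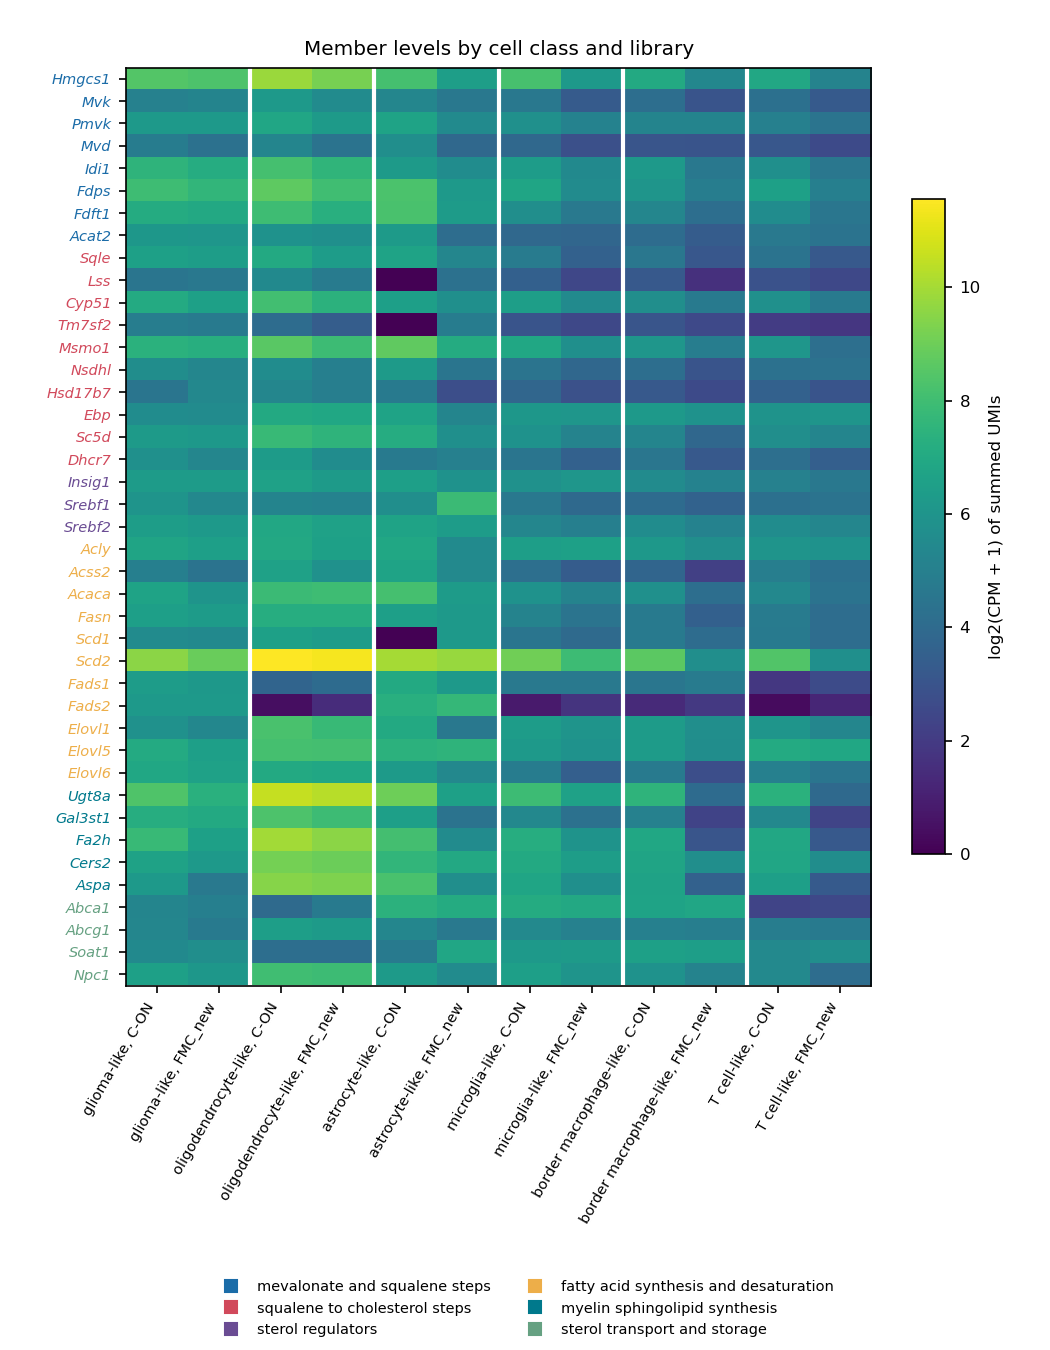
Heat map of the 41 genes (rows, symbols colored by role list) in 6 cell classes of 2 libraries (columns), colored by log2(CPM + 1) of the summed UMIs. The oligodendrocyte-like columns are the brightest for most rows, *Fads2* is bright only in the glioma-like and astrocyte-like columns, and the last pair of columns gives the T cell-like background.

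Against oligodendrocyte-like cells, glioma-like cells were lower in 22 of the 41 genes and higher in 3, with 16 not called. All 5 genes of myelin sphingolipid synthesis were lower, as were 7 of 11 of fatty acid synthesis, 5 of 10 of the late sterol steps and 2 of 8 of the mevalonate steps, while *Fads1*, *Fads2* and *Soat1* were higher. Over all 15136 genes tested with edgeR's quasi-likelihood test (adjusted p under 0.05 by Benjamini-Hochberg, library as a block), 15% were called lower and 27.2% higher. The median log2 fold change of the members was −0.88, against 0.18 over all genes, and 38 of the 41 moved the same way in both libraries. From C-ON alone the median was −1.31, and from FMC_new alone it was −0.63. Without the highest doublet scores the median was −1.33, and with library totals in place of TMM it was −0.55. TMM scaling moved all log2 fold changes of this comparison by −0.33; with library totals alone, 14 members were lower and 4 higher.

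Sphingolipid genes showed the widest gap, with a median log2 fold change of −3.04 over the list. *Aspa*, which frees acetate for lipid synthesis from N-acetylaspartate, was at 73.7 CPM in glioma-like and 699 in oligodendrocyte-like cells of C-ON, and at 24.2 and 644 in FMC_new (log2 fold change −4.54 ± 0.72 SE, adjusted p = 2.67e-05, and −3.66 without FMC_new). In C-ON the glioma-like level of *Aspa* was at or below the 90.5 CPM of T cell-like cells, and in FMC_new it was above their 8.6. *Ugt8a*, the galactosyltransferase that makes galactosylceramide, was at 330 against 1508 CPM in C-ON and 163 against 1270 in FMC_new (−3.04 ± 0.59, adjusted p = 0.000223). Both glioma-like values of *Ugt8a* stood above the 166 and 14.7 CPM of the T cell-like cells. *Fa2h*, the hydroxylase of the acyl chain, was at 219 against 987 and 94.5 against 744 CPM (−3.04 ± 0.65, adjusted p = 0.000651), and *Cers2*, the ceramide synthase for very long chains, fell by 2.94 on the log2 scale. *Gal3st1*, which sulfates galactosylceramide, differed least in this list, at 147 against 325 and 129 against 239 CPM (−1.23 ± 0.49, adjusted p = 0.0474).

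In fatty acid synthesis the direction was split by enzyme. *Elovl1*, the elongase of saturated very long chains, was at 56.7 against 304 CPM and 40.0 against 222 (−2.76 ± 0.40, adjusted p = 7.89e-06). *Scd2*, the brain stearoyl-CoA desaturase, was at 739 against 3020 and 489 against 2735 (−2.63 ± 0.58, adjusted p = 0.000828), and *Scd1* at 46.2 against 94.4 and 44.2 against 82.7 (−1.27 ± 0.34, adjusted p = 0.00465). The desaturases of polyunsaturated chains ran the other way. *Fads2*, the delta-6 desaturase, was at 72.1 CPM in glioma-like and 0.336 in oligodendrocyte-like cells of C-ON and at 72.9 and 1.79 in FMC_new (6.02 ± 0.47, adjusted p = 4.38e-09). The size of this difference is uncertain, since the counting interval of the oligodendrocyte-like level was not above that of T cell-like cells. The difference was 5.04 from FMC_new alone and 6.95 from C-ON alone. *Fads1*, the delta-5 desaturase, was at 81.8 against 12.0 and 71.1 against 15.2 (2.16 ± 0.27, adjusted p = 1.43e-06). No library's glioma-like level of either gene came near that of its oligodendrocyte-like cells.

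In C-ON a *Fads2* UMI was found in 29.6% of glioma-like cells (95% Clopper-Pearson interval 23.5 to 36.2), and in FMC_new in 30.7% (28.2 to 33.3). In oligodendrocyte-like cells the shares were 0.26% and 1.26%, and in T cell-like cells 0.103% and 0.465%. Median depths were 5294 and 5468 UMIs per glioma-like cell, 7759 and 7038.5 per oligodendrocyte-like cell and 3230.5 and 3004 per T cell-like cell. With cells thinned to 1000 UMIs, leaving out the 612 of 25652 cells that were shallower, the share over both libraries was 6.6% in glioma-like cells, 0.0836% in oligodendrocyte-like cells and 0.188% in T cell-like cells. At equal depth the glioma-like share thus stayed apart from the other 2. The order of those 2 is not read, since most oligodendrocyte-like cells came from C-ON and most T cell-like cells from FMC_new. By library, the T cell-like CPM of *Fads2* was 79.0% and 76.3% of the oligodendrocyte-like CPM, with counting intervals that overlapped.

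Among the sterol enzymes the differences were smaller. *Sc5d*, which makes the last double bond of the lathosterol branch, was at 78.6 against 223 CPM and 71.5 against 181 (−1.71 ± 0.28, adjusted p = 3.6e-05), and *Ebp*, the sterol isomerase, at 48.6 against 128 and 47.5 against 116 (−1.66 ± 0.27, adjusted p = 3.71e-05). The glioma-like level of *Ebp* was at or below the T cell-like level in both libraries. *Cyp51*, the lanosterol demethylase, was at 133 against 265 and 93 against 169 (−1.24 ± 0.32, adjusted p = 0.0033). *Hmgcs1*, which makes HMG-CoA at the head of the mevalonate route, was at 356 against 911 and 322 against 585 (−1.33 ± 0.44, adjusted p = 0.0197), and *Mvk*, mevalonate kinase, at 33.2 against 73.7 and 36.0 against 46.1 (−0.96 ± 0.31, adjusted p = 0.0176, and −1.56 without FMC_new). *Msmo1* and *Dhcr7* were the other lower members of the late steps. The remaining 11 sterol enzymes were not called, with log2 fold changes from −0.88 (*Fdft1*) to 0.82 (*Tm7sf2*).

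Of the regulators, *Srebf2* was lower in glioma-like cells, at 85.9 against 119 CPM and 74.0 against 98 (−0.76 ± 0.26, adjusted p = 0.0203). *Insig1* was at 81.0 against 97.2 and 80.5 against 77.9 CPM (−0.42, adjusted p = 0.141), and *Srebf1* at 63.2 against 36.7 and 41.5 against 34.0 (0.20, adjusted p = 0.712). Neither passed the test. In transport and storage, *Npc1*, which moves cholesterol out of lysosomes, was at 94.0 against 256 and 69.4 against 241 CPM (−1.95 ± 0.28, adjusted p = 7.3e-06) and *Abcg1* at 38.1 against 87.6 and 25.8 against 78.6 (−1.73 ± 0.26, adjusted p = 1.27e-05). *Soat1*, which esterifies cholesterol for storage, was higher, at 44.5 against 17.2 and 51.8 against 17.4 (1.17 ± 0.39, adjusted p = 0.0204), and its glioma-like level was close to the 42.2 and 52.2 CPM of T cell-like cells. *Abca1* was at 37.3 against 15.2 and 30.7 against 25.3 CPM and was not called (0.43, adjusted p = 0.433).

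Of the wider pathway, 2 of 10 genes of SREBP processing and LXR were higher and 0 lower, with *Nr1h3*, the liver X receptor alpha, at a log2 fold change of 2.73 and *Mylip*, an LXR target, at 0.90. Fatty acid activation and elongation had 4 of 17 higher and 6 lower, among them *Acsl6* (4.54) and *Elovl7* (−3.23). Sphingolipid and plasmalogen synthesis had 3 of 17 higher and 9 lower, among them the ceramide synthase *Cers6* (3.79) and the myelin lipid transporter *Abca2* (−3.53). Lysosomal turnover and sterol handling had 3 of 18 higher and 7 lower, among them the sterol hydroxylases *Ch25h* (4.70) and *Cyp27a1* (−2.31).

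**Figure D2:**
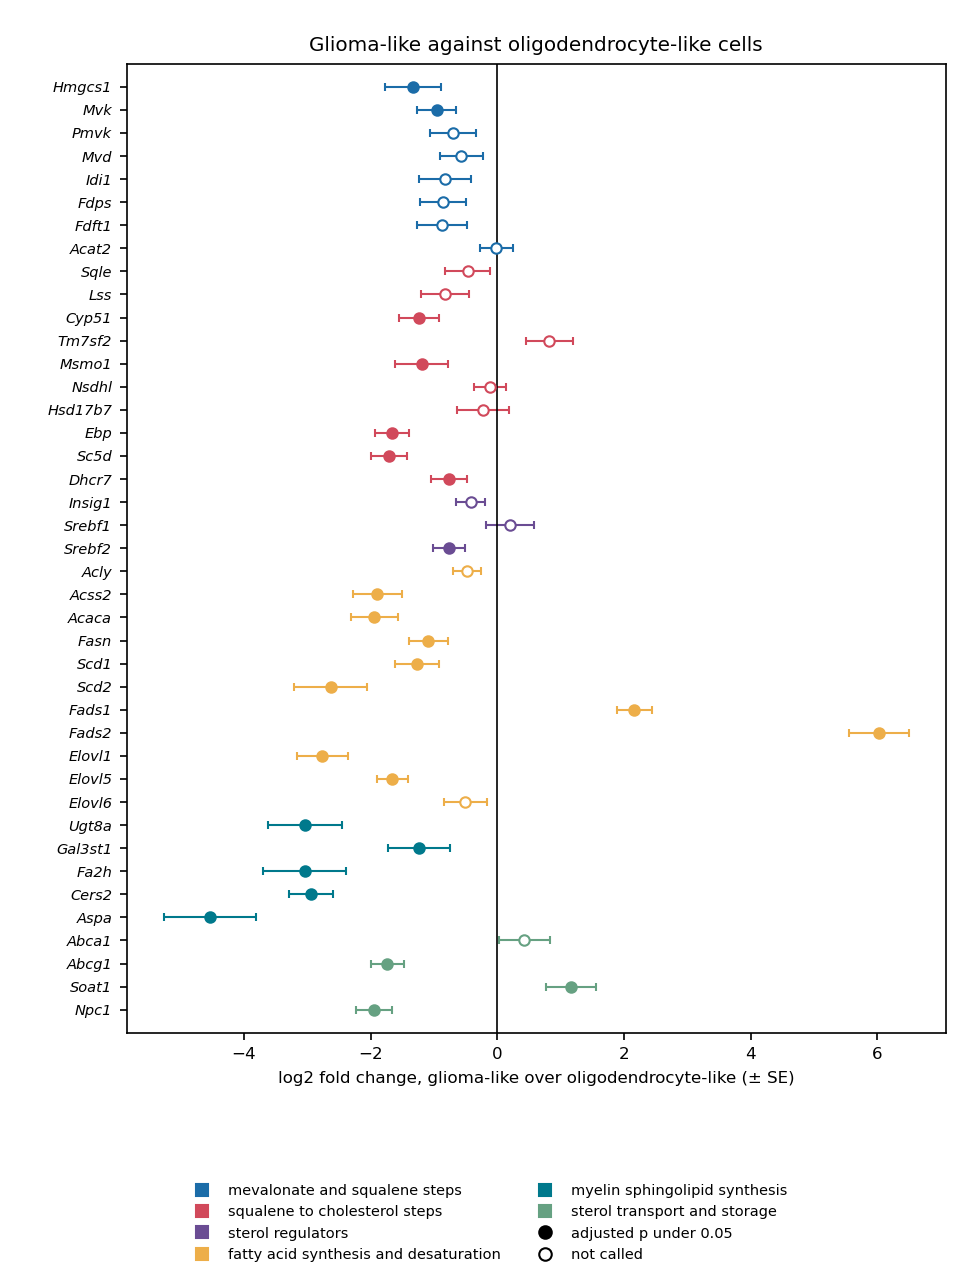
Log2 fold change of each of the 41 genes between glioma-like and oligodendrocyte-like cells (x axis, ± SE) by gene (y axis), colored by role list and filled where the adjusted p was under 0.05. *Fads2* stands at 6.02 and *Fads1* at 2.16 to the right of 0, and *Aspa* at −4.54 lies farthest to the left.

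The glioma-like cells came from cluster 8 (207 and 937 cells) and cluster 22 (6 and 368 cells), and the second could be read in FMC_new alone. There *Hmgcs1* was at 345 CPM in cluster 8 and 199 in cluster 22, *Fads2* at 78.5 and 42, *Ugt8a* at 171 and 114 and *Aspa* at 19.7 and 49.1, a description with no replicate. No cluster was named by the list of committed precursors, so cells of cluster 8 with a UMI of *Gpr17*, a receptor of committed oligodendrocyte precursors, were compared with those without one. Of the 41 members, edgeR called 0 in either direction and so did DESeq2, 5 had an unadjusted p under 0.05 (4 higher, 1 lower), and 0.228% of 11835 genes were called higher and 0.651% lower, 0.879% in all. The median log2 fold change of the members was 0.04, or 0.13 without C-ON and −0.11 without FMC_new. The 10 members named in every comparison (*Srebf1*, *Srebf2*, *Insig1*, *Abca1*, *Abcg1*, *Scd1*, *Scd2*, *Ugt8a*, *Aspa* and *Fa2h*) ranged from −0.67 ± 0.22 for *Aspa* (61.6 against 89.3 and 15.9 against 24.1 CPM) to 0.67 ± 0.24 for *Abca1* (47.9 against 28.1 and 37.6 against 22.3 CPM). The split had 1 residual degree of freedom. It follows depth as well as *Gpr17*, since a UMI is more likely to be seen in a deeper cell. The group without a UMI may therefore hold cells that express *Gpr17*.

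Astrocyte-like cells were lower than oligodendrocyte-like cells in 26 of the 41 genes and higher in 5, where 13.7% and 20.8% of the 15136 genes were called lower and higher. The oligodendrocyte-like sums are the same as in the comparison above. The 5 higher genes were *Fads1*, *Fads2*, *Abca1*, *Soat1* and *Srebf1*. The median log2 fold change of the members was −1.29 against 0.01 over all genes, and with library totals alone 14 members were lower and 5 higher (TMM shift −0.53). C-ON gave only 21 astrocyte-like cells, in which oligodendrocyte markers stood at 46.7% of their oligodendrocyte-like level, against 9.92% in FMC_new; the part of such transcripts in the C-ON values was not tested.

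*Fads2* was at 156 CPM in astrocyte-like and 0.336 in oligodendrocyte-like cells of C-ON and at 205 and 1.79 in FMC_new (7.13 ± 0.51, adjusted p = 2.51e-09, and 6.44 from FMC_new alone), and *Fads1* at 130 against 12.0 and 74.3 against 15.2 (2.23 ± 0.32, adjusted p = 1.53e-05). *Abca1*, through which astrocytes are known to load lipoproteins with cholesterol, was at 169 against 15.2 and 137 against 25.3 (2.36 ± 0.45, adjusted p = 0.000311). The astrocyte-like values of these 3 lay above every oligodendrocyte-like value. *Srebf1* was at 52.1 against 36.7 CPM in C-ON and 237 against 34.0 in FMC_new (2.0 ± 0.40, adjusted p = 0.000548), and *Soat1* at 26.0 against 17.2 and 113 against 17.4 (1.97 ± 0.45, adjusted p = 0.00151). Both of these rested on FMC_new, since without it the log2 difference was −0.21 for *Srebf1* and −0.12 for *Soat1* on the TMM scale.

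Among the lower genes, *Hmgcs1* was at 286 against 911 CPM in C-ON and 87.2 against 585 in FMC_new (−2.76 ± 0.50, adjusted p = 0.000174). *Idi1*, the isopentenyl diphosphate isomerase, fell by 2.31 and *Fdps*, which makes farnesyl diphosphate, by 1.70 on the log2 scale, the former at 78.1 against 283 and 48.3 against 189 CPM. Of the late steps, *Hsd17b7* had a log2 fold change of −2.32, *Cyp51* of −2.06 and *Sc5d* of −1.83. *Elovl1* (−2.96), *Scd2* (−2.03) and *Elovl6* (−1.64) led the lower fatty acid genes, while *Scd1* was not called (adjusted p = 0.0793), with 0 UMIs in the astrocyte-like cells of C-ON (a count of 0 allows up to 39.1 CPM) against 94.4 CPM, and 71.9 against 82.7 CPM in FMC_new. The sphingolipid list was lower throughout, with *Fa2h* at −3.69, *Ugt8a* at −3.42, *Gal3st1* at −3.36 and *Aspa* at −3.23. Without FMC_new these 4 were at −2.57, −2.25, −2.55 and −1.94, and *Elovl1* and *Hsd17b7* at −1.94 and −1.27. *Npc1* (−2.51), *Abcg1* (−1.94) and *Insig1* (−0.84, adjusted p = 0.0231) were lower as well, and *Srebf2* was not called (−0.69, adjusted p = 0.078). In FMC_new the astrocyte-like levels of *Hsd17b7*, *Elovl1* and *Abcg1* were at or below the T cell-like level, so the sizes of these differences are uncertain. *Idi1*, *Cyp51*, *Sc5d*, *Elovl6*, *Gal3st1*, *Npc1* and *Insig1* did not stand above the T cell-like interval in both libraries. In the wider pathway 1 of 10 SREBP and LXR genes was higher and 1 (*Nr1h2*, −0.77) lower, and the higher and lower counts were 7 and 6 of 17 for fatty acid activation (*Acsl6*, 7.47, and *Elovl7*, −3.30), 3 and 8 of 17 for sphingolipids (*Gltp*, −2.58, and *Abca2*, −2.28) and 1 and 6 of 18 for lysosomal handling (*Plin2*, 1.56, and *Cyp27a1*, −2.22).

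Glioma-like and astrocyte-like cells differed in few members when compared directly. *Acat2*, the cytosolic thiolase of the mevalonate route, was higher in glioma-like cells, at 68.0 against 78.1 CPM in C-ON and 67.0 against 16.5 in FMC_new (1.5 ± 0.39, adjusted p = 0.011), a difference carried by FMC_new, without which it was 0.10. In FMC_new the astrocyte-like level of *Acat2* was at or below that of T cell-like cells. *Gal3st1* was higher at 147 against 91.1 and 129 against 20 (2.13 ± 0.66, adjusted p = 0.0318, and 1.00 without FMC_new). *Abca1* was lower at 37.3 against 169 and 30.7 against 137 (−1.93 ± 0.47, adjusted p = 0.00672), with each library on the same side. *Srebf1* was called lower at 63.2 against 52.1 and 41.5 against 237 (−1.79 ± 0.42, adjusted p = 0.00468), but without FMC_new its log2 difference was 0.58. With 2 members higher and 2 lower, the background was 6.74% and 7.72% of all genes, and the counts moved with the processing, from 0 to 6 higher and from 2 to 5 lower. *Fads2* did not pass the test between these classes (72.1 against 156 and 72.9 against 205 CPM, −1.11 ± 0.43, adjusted p = 0.0915). The other 8 members named in every comparison ranged from −1.31 for *Aspa* to 0.65 for *Fa2h*, and of the wider pathway 4 genes were higher, among them *Agps* (0.93) of plasmalogen synthesis, and 5 lower, among them *Elovl2* (−6.36), an elongase of polyunsaturated chains with 0 UMIs in glioma-like cells of C-ON, *Thrsp* (−3.35), a lipogenesis factor, and *Acsl6* (−2.93).

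Microglia-like cells were lower than oligodendrocyte-like cells in 34 of the 41 members and higher in *Abca1*, *Soat1* and *Fads1*, against 24.3% of all genes called lower and 26% higher (50.3% in either direction). All 8 mevalonate, all 10 late sterol and all 5 sphingolipid members were lower in this fit, which again shares the oligodendrocyte-like sums. The 3 higher genes belong to sterol export, sterol storage and polyunsaturated fatty acid synthesis. *Abca1* was at 137 against 15.2 CPM in C-ON and 124 against 25.3 in FMC_new (2.82 ± 0.41, adjusted p = 7.13e-06). *Soat1* was at 75.2 against 17.2 and 78.8 against 17.4 (2.25 ± 0.40, adjusted p = 7.24e-05), and *Fads1* at 24.8 against 12.0 and 24.8 against 15.2 (0.98 ± 0.28, adjusted p = 0.00568).

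*Fdft1* (−2.39), *Hmgcs1* (−2.20) and *Fdps* (−2.09) led the lower mevalonate genes, and *Sqle* (−2.52), *Lss* (−2.28) and *Sc5d* (−2.06) the later steps. *Scd2* was at 529 against 3020 CPM and 243 against 2735 (−3.02 ± 0.59, adjusted p = 0.00021), with *Elovl6* at −2.81, *Acss2* at −2.44 and *Scd1* at −2.23. *Gal3st1*, *Ugt8a*, *Fa2h* and *Aspa* had log2 fold changes from −3.27 to −3.20, and *Ugt8a* was at −2.63 without FMC_new. *Srebf2* (−1.58), *Npc1* (−1.63) and *Abcg1* (−1.06) were lower, whereas *Srebf1* (−0.87, adjusted p = 0.0763) and *Insig1* (−0.37, adjusted p = 0.181) were not called. The microglia-like level was at or below the T cell-like level for 6 members in C-ON and 11 in FMC_new, among them *Srebf2*, *Scd1*, *Acss2* and *Elovl6* in both libraries.

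Oligodendrocyte transcripts were uneven between the 2 microglia-like clusters. In cluster 19 (29 and 443 cells) the oligodendrocyte markers summed to 57214 and 27796 CPM and *Ugt8a* stood at 1075 and 369, while in cluster 11 (161 and 838 cells) the markers summed to 8400.4 and 3559.5 CPM and *Ugt8a* stood at 103 and 10.1. *Scd2* was at 229 and 42.1 CPM in cluster 11, and there both *Scd2* and *Ugt8a* were below the T cell-like levels of 342 and 52.7 CPM and of 166 and 14.7 CPM. *Abca1* was at 156 and 139 CPM in cluster 11 and at 26.4 and 78.4 in cluster 19. Without cluster 19, 35 members were lower and 3 higher, and the median log2 fold change of the members moved from −1.91 to −2.44. The value for *Ugt8a* was then −5.53, for *Fa2h* −5.65, for *Aspa* −5.31, for *Gal3st1* −4.63 and for *Scd2* −4.86. Without the highest doublet scores the median was −2.82. In the wider pathway 3 of 10 SREBP and LXR genes were higher (*Mylip*, 4.63; *Nfya*, 2.51) and 1 lower, 3 of 17 of fatty acid activation were higher (*Acsl5*, 3.97) and 9 lower (*Elovl7*, −3.32), 2 of 17 of sphingolipids were higher (*Cers6*, 5.10) and 9 lower (*Abca2*, −2.92), and 8 of 18 of lysosomal handling were higher (*Ch25h*, 7.82; *Soat2*, 6.18) and 4 lower.

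Whether the members differed between border macrophage-like and microglia-like cells depended on the samples in the fit. Of 41, edgeR called 0 higher and 0 lower with all classes, where 2.23% of all genes were called higher and 1.43% lower, 3.66% in all. In that fit 7 members had an unadjusted p under 0.05, all of them lower. With only these 2 classes edgeR called 8 lower, and the share of all genes called in that fit was not counted. DESeq2 called 0 higher and 1 lower. The 10 members named throughout ranged from −1.40 ± 0.64 for *Fa2h* (119 against 146 CPM in C-ON and 7.21 against 60.4 in FMC_new) to 0.37 ± 0.27 for *Srebf2* (48.2 against 38.0 and 33.8 against 30.4). *Abca1* stood at 103 against 137 and 114 against 124 CPM. The median log2 fold change of the members was −0.34, or −0.57 without C-ON and −0.18 without FMC_new, and turned to 0.20 without cluster 19, 0.25 at resolution 0.4 and 0.22 without the highest doublet scores. Of the pathway genes, *Sgms1* (1.94), a sphingomyelin synthase, and *Plin2* (1.04), a lipid droplet protein, were higher and *Mylip* (−1.18) lower.

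**Figure D3:**
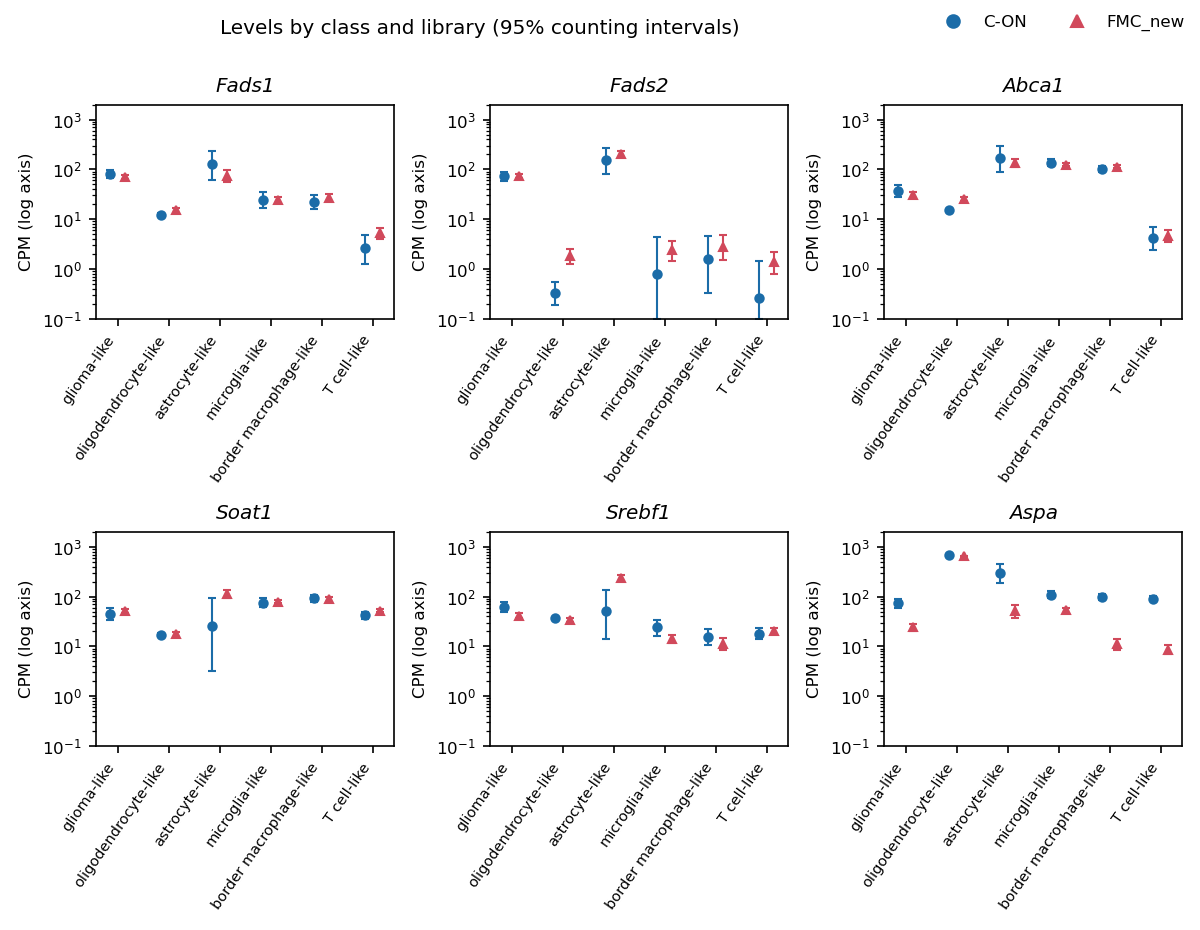
CPM (y axis, log) of *Fads1*, *Fads2*, *Abca1*, *Soat1*, *Srebf1* and *Aspa* in 6 cell classes (x axis) of C-ON (circles) and FMC_new (triangles), with 95% Poisson counting intervals as bars that the lower end of the axis may cut. *Fads2* lies between 72.1 and 205 CPM in the glioma-like and astrocyte-like cells and at no more than 2.8 CPM elsewhere, and the *Srebf1* points of the astrocyte-like cells lie apart at 52.1 and 237.

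Oligodendrocyte-like cells were split into 7 clusters. Cluster 0 (1597 and 457 cells) was Ptgds-like and served as the reference, cluster 1 (836 and 917) was interferon-like and cluster 4 (1057 and 302) was Hopx/Nkx2-9-like. Among the oligodendrocyte clusters, cluster 0 passed 3 of 7 Ptgds markers, and 3 is the minimum for a name. Cluster 1 passed 10 of 11 interferon markers and also 3 of 6 of the *Serpina3n* and *C4b* list. Among all clusters, the leading genes of cluster 1 began with *C4b* and *Serpina3n*. Clusters 5 (1159 and 186) and 12 (698 and 211; led by *Gm16168*, *Grm7*, *Tenm2*, *Slc8a1* and *Erbb4*) fitted no list and are called by number. Cluster 13 (391 and 439) was shallow and carried the pituitary hormones *Prl* and *Gh*, and cluster 29 (41 and 196) carried *Ccl5* and the T cell gene *Cd3e*. These last 2 entered the fit but not the comparisons, and the count of members called is given with and without them, a choice made after seeing the data. The fit covered 12162 genes and 40 of the 41 members, since *Fads2* was under the filter on low counts. The clusters were made from the same cells, and subtypes share the Ptgds-like reference.

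Hopx/Nkx2-9-like cells, in which 6 of the 6 markers of that list passed, were higher than Ptgds-like cells in 5 members and lower in 2, against 5.06% and 3.63% of all genes (8.69% in either direction). Fewer members were called in either direction without the library block or with library totals in place of TMM. Without clusters 13 and 29, 26 were higher and 5 lower, against 11.5% and 10.6%. In that fit all 8 mevalonate members and 9 of the 10 late sterol members were higher, with 5 higher and 2 lower of 10 fatty acid genes, 3 higher and 1 lower of 5 sphingolipid genes and 2 of 3 regulators lower. The median log2 fold change was 0.51 in the fit with all clusters and 0.52 without the 2, and 39 of 40 members moved the same way in both libraries.

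*Sqle*, the squalene epoxidase, was at 181.7 CPM against 78.9 in C-ON and 115 against 67.6 in FMC_new (0.97 ± 0.24, adjusted p = 0.023), and *Tm7sf2*, a sterol reductase, at 28.1 against 9.97 and 20.8 against 7.22 (1.51 ± 0.27, adjusted p = 0.00356). *Nsdhl* (0.77, adjusted p = 0.0117) and *Pmvk*, at 161 against 94.3 and 125 against 75.6 (0.73 ± 0.19, adjusted p = 0.0316), were higher as well. So was *Acaca*, acetyl-CoA carboxylase, at 270 against 144 and 317 against 153 (0.96 ± 0.25, adjusted p = 0.0277). The desaturase *Fads1* was lower, at 2.19 against 23.2 and 2.45 against 26.2 (−3.39 ± 0.28, adjusted p = 7.88e-06), where the Hopx/Nkx2-9-like level was below the 2.65 and 5.2 CPM of T cell-like cells, so the size of the difference is uncertain. *Srebf1* was lower as well, at 28.2 against 37.7 and 25.4 against 42.9 (−0.59 ± 0.16, adjusted p = 0.043). Each of these 7 differences had the same sign in both libraries. The other named members were not called with all clusters in the fit and ranged from −0.54 (*Insig1*) to 0.42 (*Ugt8a*, *Fa2h*), but without clusters 13 and 29 *Ugt8a* and *Fa2h* were called higher and *Insig1* and *Aspa* lower. In the wider pathway 1 of 9 SREBP and LXR genes was higher (*Mylip*, 2.48), as were 2 of 14 of fatty acid activation (the malic enzyme *Me1*, 1.51, and the citrate carrier *Slc25a1*, 0.84) and 2 of 16 of lysosomal handling (*Plin2*, 1.92, and *Cyp27a1*, 1.63), and of 17 sphingolipid genes 2 were higher (*Far1*, 0.90) and 1 lower (*Cerk*, −1.53).

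Interferon-like cells differed from Ptgds-like cells in 1 higher and 1 lower member, where 3.89% and 0.715% of all genes were called higher and lower, 4.6% in all. *Abca1* was at 22.8 against 12.0 and 32.5 against 14.4 CPM (0.94 ± 0.19, adjusted p = 0.0122), and *Fads1* at 8.79 against 23.2 and 13.3 against 26.2 (−1.27 ± 0.23, adjusted p = 0.0047). Without clusters 13 and 29, 2 members were higher and 9 lower, against 11.2% and 8.6%. The other 9 members named throughout were not called in the fit with all clusters, from −0.62 (*Insig1*) to 0.19 (*Ugt8a*). In the wider pathway 0 of 9 SREBP and LXR genes, 2 of 14 of fatty acid activation (*Me1*, 1.58), 1 of 17 of sphingolipids (*Cers1*, 1.44) and 1 of 16 of lysosomal handling (*Plin2*, 2.57) were higher, and none of these genes was called lower.

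For cluster 5 the count of calls depended on the samples in the fit. With all clusters, edgeR and DESeq2 both called 0 of the 40 members higher and 0 lower, 2 had an unadjusted p under 0.05, and 0.428% of all genes were called higher and 0.222% lower. Without clusters 13 and 29 there were 3 higher and 1 lower, against 2.46% and 1.88%. With only cluster 5 and the Ptgds-like cells there were 21 higher and 3 lower. The share of all genes called in that last fit was not counted. With all clusters, the median log2 fold change was 0.22, or 0.10 without C-ON and 0.25 without FMC_new. The largest difference was again that of *Fads1*, at 10.7 against 23.2 and 13 against 26.2 CPM (−1.07 ± 0.24, adjusted p = 0.0755). The 10 members named throughout ranged from −0.21 for *Insig1* to 0.24 for *Fa2h*. No gene of the 4 pathway lists was called. In cluster 12, *Fads1* was at 19.9 against 23.2 and 40.6 against 26.2 CPM (−0.05, adjusted p = 0.906), so it was below the Ptgds-like level in both libraries of the other 3 subtypes but not of this one.

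**Figure D4:**
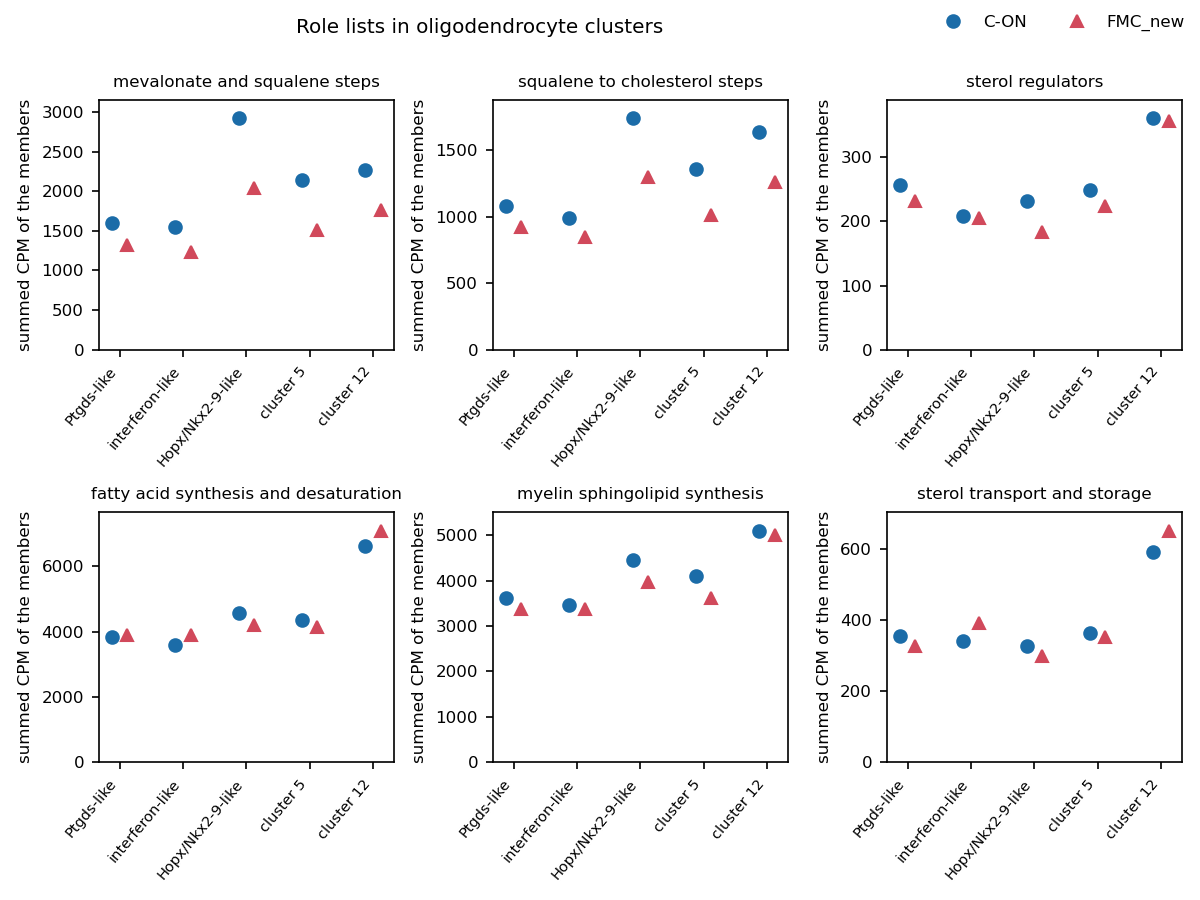
Summed CPM of the members of each role list (y axis, from 0, 1 panel per list) in 5 oligodendrocyte clusters (x axis) of C-ON (circles) and FMC_new (triangles). The mevalonate sums of the Hopx/Nkx2-9-like cells (2923 and 2041 CPM) lie above those of the Ptgds-like cells (1604 and 1319), and cluster 12 has the highest fatty acid sums (6635 and 7099).

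Cluster 12 was higher than the Ptgds-like cells in 10 members and lower in 4, where 19.3% and 19% of all genes were called higher and lower. Without clusters 13 and 29 the counts were 19 and 8, against 26.6% and 26.2%. *Acaca* was at 437 against 144 and 463 against 153 CPM (1.39 ± 0.25, adjusted p = 0.000866), *Elovl5* at 488 against 206 and 532 against 215 (1.06 ± 0.27, adjusted p = 0.00829) and *Scd1* at 167 against 81.2 and 194 against 75.6 (0.99 ± 0.26, adjusted p = 0.0101). *Ugt8a* was at 2633 against 1129 and 2548 against 1036 (1.05 ± 0.31, adjusted p = 0.018), while *Fa2h* and *Aspa* were not called (0.06 and −0.15). With all clusters in the fit, 1 of the 5 sphingolipid members was called, and without clusters 13 and 29 *Cers2* (−0.40) and *Gal3st1* (−0.68) were lower as well. In transport, *Abca1* was at 31.6 against 12.0 and 57.9 against 14.4 CPM (1.43 ± 0.20, adjusted p = 0.000168). *Soat1* had a log2 fold change of 0.96, or 0.70 without FMC_new and 1.63 without C-ON. The 14 members called are 35% of the 40, near the 38.3% called over all genes.

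The mevalonate steps of cluster 12 did not move together. *Hmgcs1* was higher, at 1339 against 588 and 1050 against 483 CPM (0.94 ± 0.31, adjusted p = 0.0292), whereas *Fdps* was lower at 209 against 339 and 138 against 302 (−1.15 ± 0.36, adjusted p = 0.0249), as were *Pmvk* (−1.10), *Mvd* (−0.82) and *Mvk* (−0.76). Fewer members were called lower without the library block, with library totals or with DESeq2. TMM scaling moved all log2 fold changes of this comparison by −0.21. The median of the members was 0.28 with TMM and 0.49 with library totals. *Sqle* (0.83), *Lss* (0.65) and *Srebf2* (0.54) were higher. In the wider pathway 4 of 9 SREBP and LXR genes were higher (*Mylip*, 2.15; *Mbtps2*, 1.082) and 1 lower, 2 of 14 of fatty acid activation were higher (*Acsl4*, 1.21) and 4 lower (*Hacd1*, −1.16), 6 of 17 of sphingolipids were higher (*Sgms1*, 1.36, and *Ugcg*, 1.17), and 2 of 16 of lysosomal handling were higher (*Cyp27a1*, 0.74) and 2 lower (*Npc2*, −0.75).

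The annotated span of a gene moved with these differences. The 10 higher members had a median span of 54.0 kb, the 4 lower ones 12.1 kb and the 26 not called 19.2 kb. Spearman's rho between span and log2 fold change was 0.53 over the 40 members and 0.59 over 12155 genes, a description across genes of the same libraries, so the members followed the relation seen in all genes. In the other comparisons the rho over all genes lay between −0.18 and 0.23. *Malat1*, a transcript kept in the nucleus, took 2.0% and 1.48% of the UMIs of cluster 12 and 0.948% and 0.818% of those of the Ptgds-like cells. The part of span and nuclear transcripts in the member differences was not tested.

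**Figure D5:**
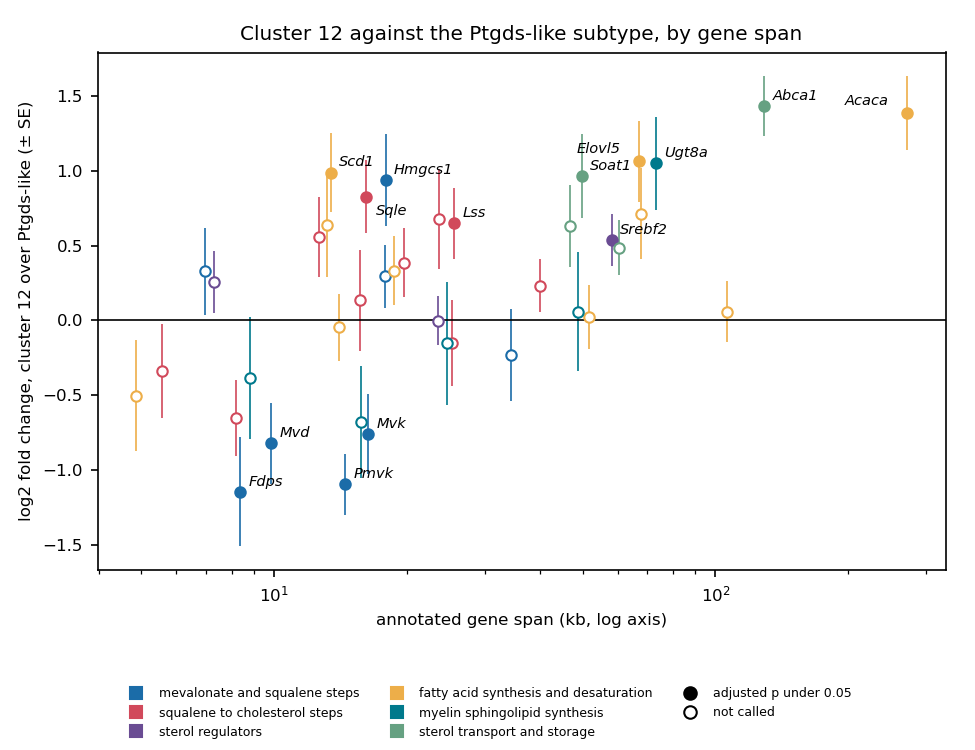
Log2 fold change of 40 members between cluster 12 and the Ptgds-like cells (y axis, ± SE) by annotated gene span in kb (x axis, log), colored by role list and filled where the adjusted p was under 0.05. The higher members spread around a median of 54.0 kb and the 4 lower ones lie between 8.37 and 16.3 kb.

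The same oligodendrocyte clusters could also be set side by side between libraries, as a description with no test. In each of the 5 compared clusters the median log2 ratio of C-ON over FMC_new was above 0 for the mevalonate steps (0.30 to 0.47), the later sterol steps (0.24 to 0.46), and also for the regulators (0.04 to 0.35) and sphingolipid synthesis (0.03 to 0.24), against −0.19 to 0.14 for fatty acid synthesis, −0.20 to 0.12 for transport and storage and −0.03 to 0.01 over all genes. *Mvd* lay between 0.49 and 0.80 and *Dhcr7* between 0.42 and 0.51 in the 5 clusters. *Abca1* lay on the other side, from −0.86 to −0.25. Of the 18 sterol enzymes, all but *Acat2*, *Ebp* and *Sc5d* were higher in C-ON in each of the 5 clusters, and the library cannot be told apart from any difference in how it was prepared.

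Across 35 clusters of at least 50 cells, the members of a list varied together to different degrees, as a description of clusters that share libraries and background transcripts. The median Spearman's rho between members was 0.90 within the sphingolipid list, 0.79 within the mevalonate steps, 0.72 within the later sterol steps, 0.62 within fatty acid synthesis, 0.61 among the regulators and 0.17 within transport and storage. The closest pairs included *Scd2* with *Ugt8a* (0.97), *Ebp* with *Elovl1* (0.94), *Hmgcs1* with *Msmo1* (0.92) and *Abcg1* with *Npc1* (0.89). *Fads2* was most like *Fads1* (0.49) and least like *Elovl1* (−0.60). *Abca1* was also most like *Fads1* (0.48), and *Fads2* or *Soat1* was the least like partner of most other members.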

How the data were processed

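The authors deposited raw UMI counts per gene and cell for both libraries, made per the labels with Cell Ranger 7.2.0 on mm10; the study's methods name another version of this program, and no depth correction between libraries is stated. The members, the role and pathway lists and the alternatives were chosen with earlier results of these data known. Barcodes with 500 to 5000 genes, 500 to 20000 UMIs and at most 5% mitochondrial UMIs were kept. These 25652 cells were clustered in Seurat 5.3.0 (2000 variable features, 30 components, resolution 0.8, members and pathway genes left out of the features) into 36 clusters, of which 3 (710 cells) stayed unnamed. Scrublet marked 1 cell as a doublet and so did not work; removal of the 10% highest scores was added as an alternative. Counts were summed per class and library (at least 10 cells) and tested with edgeR 4.0.16 (quasi-likelihood, TMM, library as block): 30 sums of 15 classes with 14 residual degrees of freedom, and 14 sums of 7 oligodendrocyte clusters with 6. The block pairs classes because both come from 1 library. CPM are summed counts scaled to a common total, and log2 fold changes are fitted by edgeR. A 5′ UMI counts 1 molecule whatever the transcript's length. On simulated counts for the comparison of glioma-like with oligodendrocyte-like cells (15136 genes), 33% of genes changed 2-fold and 87% of those changed 4-fold were recovered, and 7 unchanged genes were called. The simulation changed 100 genes at each fold and gave all classes 1 mean profile and all genes 1 spread, with no library effect. The real fit differs in each of these, so the shares may not hold for it. Named in each comparison were up to 3 called members per role list with the largest change and the same direction in both libraries, 10 members throughout, and up to 2 called genes per pathway list; further members, such as the uncalled ones, were named after their values were seen. Alternatives were DESeq2 1.42.0, its size factors, no filter on low counts, no block, only the classes compared, other clusterings and hormone and immunoglobulin UMIs left out. Promoter sequences and starts are from RefSeq (GRCm38.p6).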

Additional observations from a re-analysis of the deposited data

Results flagged for a closer look

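*Pmvk*, phosphomevalonate kinase, stood at 445 CPM in cluster 17 (604 cells) and at 227 CPM in cluster 18 (565 cells), both pituitary endocrine-like clusters outside the comparisons. Its highest level in a class compared and in the same library, FMC_new, was 79.0 CPM in oligodendrocyte-like cells. C-ON gave no cells to either cluster, so these levels have no replicate.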

How the results depend on the processing

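Without the library block, which pairs the classes of 1 library, the count of lower members fell from 22 to 11 for glioma-like and from 26 to 16 for astrocyte-like against oligodendrocyte-like cells; there were then 1 higher between glioma-like and astrocyte-like cells, 0 higher and 0 lower in interferon-like cells, 0 and 1 in Hopx/Nkx2-9-like cells and 5 and 1 in cluster 12. With library totals in place of TMM the lower counts were 14 and 14 in the first 2 comparisons, 1 higher was left between glioma-like and astrocyte-like cells, 2 higher and 1 lower in Hopx/Nkx2-9-like cells and 1 lower in cluster 12. With only the compared classes in the fit, the counts were 8 lower for border macrophage-like against microglia-like, 4 lower for glioma-like against astrocyte-like, 3 higher and 9 lower for interferon-like, 26 and 5 for Hopx/Nkx2-9-like, 21 and 3 for cluster 5, and 21 and 9 for cluster 12. Without clusters 13 and 29 they were 2 and 9, 26 and 5, 3 and 1, and 19 and 8 for the same 4 subtypes, and 6 higher between glioma-like and astrocyte-like cells. This last count of 2 was 1 with DESeq2's size factors, 6 with no filter on low counts, 4 without hormone and immunoglobulin UMIs, 4 without cluster 19, 5 without the highest doublet scores, 0 with members kept among the variable features and 0 at resolution 0.4, where 5 were lower. With no filter, Hopx/Nkx2-9-like cells had 13 higher and 1 lower, and cluster 5 had 1 lower. DESeq2 called 1 lower between the macrophages and 2 lower in cluster 12, and removing the highest doublet scores gave 1 higher and 1 lower between the macrophages. The cause of these moves was not tested. The share of all genes called was counted for the main fits and for the subtypes without clusters 13 and 29. It was not counted for the other alternatives.

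In the comparison of glioma-like with oligodendrocyte-like cells, 376 of 420 values of single members kept direction and call, 35 lost the call, 5 gained it and 4 moved in size; for astrocyte-like cells these were 394 of 462, 46, 7 and 13, and 2 reversed. Without FMC_new the astrocyte-like differences reversed for *Srebf1* (−0.21, against 2.48 without C-ON) and *Soat1* (−0.12, against 2.38), as did *Srebf1* between glioma-like and astrocyte-like cells (0.58, against −2.42). With 2 libraries, leaving out 1 gives values with no test. Other clusterings gave no values for the subtypes, a minimum of 30 cells left no astrocyte-like comparison, and removal of called doublets was not run because 1 cell was marked. The alternatives without clusters 13 and 29, without cluster 19, without TMM and without the highest doublet scores, and the *Gpr17* split, were chosen after seeing the data. Depth limits the C-ON astrocyte-like cells, where a count of 0 in 21 cells allows up to 39.1 CPM.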
